A study of Mus musculus with 24 samples.

Results

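Ctla2a, Tinagl1 and Gda are the non-chaperone genes that edgeR called higher after heat shock (HS) in the muscle of R6/2 mice. Their transcripts were also higher after HS in wild type (WT) mice. They are 3 of the 18669 genes counted and 3 of the 13754 with enough reads to be tested. They were picked from the HS comparisons in WT and R6/2 mice, in which edgeR called 6 genes higher in R6/2 mice, the other 3 being the chaperone genes Hspa1a, Hspa1b and Hsp90aa1. The HS values of WT and R6/2 mice are therefore given below as a description only, and tests are kept for comparisons of other groups. The fit gives each gene 1 spread from all 24 libraries, in the choice and in these tests, so the tests are not fully independent of the choice. By order of p in R6/2 mice, Gda was the last gene inside the threshold (log2 fold change 1.24, adjusted p = 0.043 in edgeR), and Irf8 the first outside it (1.33, adjusted p = 0.053). Irf8 was also higher after HS in WT mice (log2 1.48). The 3 genes are thus those inside a threshold and not every gene with this pattern.

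RNA of the quadriceps femoris was sequenced from 24 mice, 2 in each of 12 groups that cross 3 genotypes with 4 treatments, and each mouse was sampled 4 h after treatment. For HS, mice under isoflurane were held with their core at 41.5 °C (15 min), and control mice at 36.9 °C (21 min). HSP990 inhibits the chaperone HSP90 and was given by mouth (12 mg/kg), with vehicle-treated mice as its controls. All were on a mixed CBA and C57BL/6 background. R6/2 mice carry a transgene with exon 1 of mutant huntingtin and model Huntington's disease, and Hsf1-/- mice lack heat shock factor 1 (HSF1), the main activator of chaperone genes in heat. WT and R6/2 mice were 12 weeks old, and Hsf1-/- mice were 10 weeks old in the HS experiment and 8 weeks old in the HSP990 experiment, so that age and the Hsf1 genotype cannot be told apart.

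Heat denatures proteins, releases HSF1 from its bound chaperones and so switches on chaperone genes, and inhibitors of HSP90 release it without heat. Ctla2a encodes a small protein that resembles the propeptide of cysteine cathepsins and inhibits such proteases, and it is known from activated T cells and mast cells. Tinagl1 encodes a secreted protein of basement membranes with a cathepsin B-like domain that lacks protease activity. Gda encodes guanine deaminase, which turns guanine into xanthine and so removes it from the purine pool. None of the 3 is a chaperone.

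In the mm9 build all 3 genes are protein coding, lie on the minus strand and overlap no other annotated gene. Ctla2a (gene identifier 13024) spans chr13:61035516-61037986 in 5 exons, Tinagl1 (94242) spans chr4:129841698-129852366 in 14 exons after merging its 8 transcripts, and Gda (14544) spans chr19:21465797-21547935 in 15 exons after merging its 3 transcripts. The Ctla2a transcript has 1334 words of 40 bases, of which 138 also occur in transcripts of its paralog Ctla2b, which is not analysed here. Over all other genes the shared words came to at most 17.8%, because a word was counted once for each gene that holds it. The counts of Ctla2a are thus less certain than those of Tinagl1 and Gda. Counted in the same way, the share was at most 9.64% for Gda, spread thinly over many genes, and 0 for Tinagl1. The level of Ctla2a was low, with 34 to 468 counts per library, against 456 to 6039 for Tinagl1 and 461 to 1852 for Gda.

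The 250 bases before the RefSeq start of each gene are shown because chaperone promoters are known for heat shock elements, in which nGAAn units alternate in direction. Capitals mark the inverted pair of units TTCNNGAA and the core of the cAMP response element, TGACGT. The sequences are those of RefSeq for GRCm38.p6, placed by exact match in mm9, and run 5′ to 3′ on the minus strand.
Ctla2a (chr13:61037987-61038236): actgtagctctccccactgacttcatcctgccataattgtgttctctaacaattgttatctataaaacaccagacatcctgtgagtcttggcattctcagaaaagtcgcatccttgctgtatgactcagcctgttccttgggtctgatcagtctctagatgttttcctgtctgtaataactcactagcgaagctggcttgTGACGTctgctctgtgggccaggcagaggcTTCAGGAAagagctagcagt
Tinagl1 (chr4:129852367-129852616): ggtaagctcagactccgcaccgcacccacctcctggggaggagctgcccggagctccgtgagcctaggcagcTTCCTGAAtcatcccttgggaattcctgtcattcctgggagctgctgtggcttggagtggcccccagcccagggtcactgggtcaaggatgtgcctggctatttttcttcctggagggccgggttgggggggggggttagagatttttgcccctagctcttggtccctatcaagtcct
Gda (chr19:21547152-21547401): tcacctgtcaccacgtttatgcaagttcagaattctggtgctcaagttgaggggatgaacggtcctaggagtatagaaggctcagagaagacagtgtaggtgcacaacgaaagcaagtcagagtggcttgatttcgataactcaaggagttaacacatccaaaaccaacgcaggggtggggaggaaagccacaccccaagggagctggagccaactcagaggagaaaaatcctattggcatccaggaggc

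The motifs searched on both strands were the inverted pairs GAANNTTC and TTCNNGAA, TGACGT and the palindromic glucocorticoid response element. The Ctla2a window held TTCAGGAA at -20 and TGACGT at -50, counted from the start to the first base of the match. The Tinagl1 window held TTCCTGAA at -178, and the window of its second RefSeq start held the glucocorticoid response element at -147, although 151 of the 250 bases of that window lie in annotated exons. None of these motifs was in the Gda window, which has 11 bases in an annotated exon because its RefSeq start lies inside the annotated span of the gene. Among 32851 promoter windows of the same length, 7.17% held TTCNNGAA, 6.69% GAANNTTC, 6.47% TGACGT and 0.387% the glucocorticoid response element. In Hspa1a and Hspa1b the pair GAANNTTC lay at -104.

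Library totals ran from 22450177 to 46599238 counts, and the unit of level below is the CPM, in which TMM factors bring libraries to one total. In the 8 R6/2 libraries the share of counts in the top 20 genes was 14.7 to 21.9% and the TMM factor 1.19 to 1.395, against 32.7 to 40.05% and 0.808 to 0.954 in the other 16. Hsf1 itself was at 21.1 to 29.0 CPM in the 8 Hsf1-/- libraries and at 45.3 to 68.5 CPM in the 16 others. Of 4 Y-linked genes, the WT and R6/2 libraries of the HS experiment held 0 to 4 counts together and the other 16 libraries 3916 to 9392. All 6 markers of muscle fibres were above 1 CPM on average, summing to 32680 to 231700 CPM, and so were all 14 endothelial markers, which summed to 658 to 1036 CPM. Of 8 markers of T and NK cells, 1 reached a mean of 1 CPM, and they summed to 1.83 to 7.31 CPM, while 4 mast cell markers summed to 3.94 to 14.5 CPM. The markers of smooth muscle and pericytes summed to 297.9 to 566.6 CPM, those of macrophages to 21.5 to 54.7 CPM and those of adipocytes to 46.4 to 721.3 CPM. In whole muscle, fewer cells of a type and less RNA per cell cannot be told apart.

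Ctla2a was at its lowest in WT controls and at its highest in heat-shocked mice of all genotypes. In WT mice it stood at 1.66 and 1.27 CPM in the controls and at 13.1 and 14.9 CPM after HS, a fitted 9.57-fold difference (log2 3.26). In R6/2 mice it stood at 1.74 and 2.38 CPM in the controls and at 10.7 and 10.2 CPM after HS, a 5.08-fold difference (log2 2.34). Treated and control mice were far apart in both genotypes, by the way the gene was chosen. The log2 difference of R6/2 mice was 0.91 smaller than that of WT mice, which was not tested.

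After HS the Tinagl1 levels of WT and R6/2 mice overlapped on the TMM scale (means of 117 and 124 CPM), while library size alone set them apart (96.4 and 152.8 CPM). It stood at 34.5 and 35.0 CPM in WT controls and at 119.9 and 113 CPM after HS (log2 1.75, 3.35-fold). The R6/2 controls had 54.5 and 39.7 CPM and the heat-shocked R6/2 mice 138 and 110.3 CPM (log2 1.40, 2.64-fold). The R6/2 minus WT difference of the log2 changes was -0.34, which was not tested.

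Gda was lower in R6/2 than in WT mice before and after HS, though the order after HS turns with library size scaling (means of 38.97 CPM in R6/2 and 36.02 CPM in WT mice). The WT controls had 21.5 and 24.2 CPM and the heat-shocked WT mice 45.9 and 41.3 CPM (log2 0.93, 1.91-fold). In R6/2 mice the controls had 15.2 and 11.7 CPM and the heat-shocked mice 33.1 and 30.4 CPM (log2 1.24, 2.36-fold). The R6/2 minus WT difference was 0.31 on the log2 scale, which was not tested. On the TMM scale both R6/2 mice lay below both WT mice in controls and after HS.

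For the chaperone genes the same libraries gave a larger gap between genotypes. This contrast is a description and was not tested, because the 3 genes were chosen from these values. Hspa1a, which encodes an inducible HSP70, was 138-fold higher after HS in WT mice and 17.7-fold higher in R6/2 mice, and Hspa1b 250-fold and 20.9-fold higher, although reads of these near-identical genes may be split between them with error. Hsp90aa1, the inducible HSP90, was 14.8-fold and 3.14-fold higher. In the comparisons that chose the genes, 2.06% of all tested genes were called after HS in WT mice, 1.59% were called higher, and 0.0436% were called in R6/2 mice, all higher, and nothing is read from these shares for genes chosen by them.

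**Figure D1:**
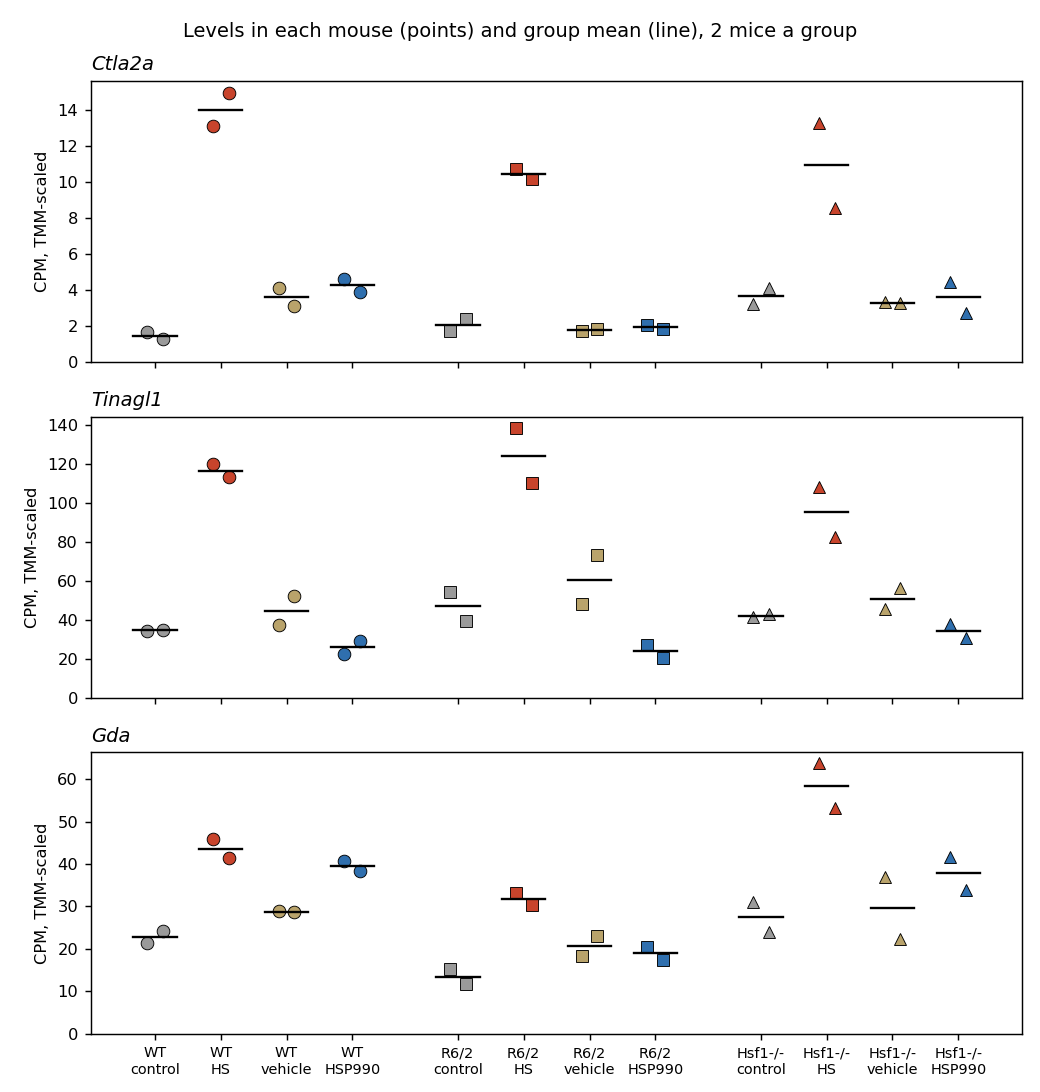
CPM after TMM scaling (y axis, linear, from 0) of Ctla2a, Tinagl1 and Gda in each of 24 mice (points) and the mean of each of the 12 groups (lines), with 2 mice per group and colours for treatment. Heat-shocked mice (red) lie above the controls of their own genotype (grey) for each gene, Hsf1-/- mice included, and HSP990 mice (blue) lie below vehicle mice for Tinagl1 in each genotype.

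The levels of the Hsf1-/- mice were not compared in choosing the genes, though they entered the shared estimate of spread. These mice ask whether the 3 transcripts are also higher after HS without HSF1. Ctla2a stood at 3.22 and 4.11 CPM in the Hsf1-/- controls and at 13.3 and 8.58 CPM after HS, a log2 fold change of 1.58 (SE 0.268, 95% interval 1.01 to 2.15, unadjusted p = 2e-05, adjusted p = 0.051 in edgeR). Tinagl1 stood at 41.3 and 42.9 CPM in the controls and at 108 and 82.6 CPM after HS (log2 1.18, SE 0.234, interval 0.68 to 1.67, unadjusted p = 0.00011, adjusted p = 0.055). Gda stood at 31.1 and 23.9 CPM in the controls and at 63.7 and 53.2 CPM after HS (log2 1.09, SE 0.208, interval 0.65 to 1.53, unadjusted p = 7.6e-05, adjusted p = 0.054). In all 3 genes both heat-shocked mice lay above both controls. The share of all genes with this order was not counted, and 2 mice against 2 can give it by chance.

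None of the 3 passed the threshold of 0.05 in edgeR, which called 1 of 13754 genes (0.00727%) in this comparison, Ppargc1a, an inducer of mitochondrial genes named here after its value was seen. At an unadjusted p under 0.05 there were 1211 genes, and the 3 genes ranked 5th (Ctla2a), 16th (Gda) and 27th (Tinagl1) by p. DESeq2 on the same libraries called 161 genes, among them Ctla2a (adjusted p = 5.2e-05), Tinagl1 (0.00044) and Gda (0.0005). The adjusted values sit so near the threshold that the call turned with the setting. Without the filter on low counts edgeR called all 3, but it then called 28 genes in all, against 1 with the filter. Without single mice the log2 fold change ran from 1.23 to 1.86 for Ctla2a, from 0.97 to 1.36 for Tinagl1 and from 0.91 to 1.29 for Gda. The log2 fold change was above 0 for each gene in each of 11 alternatives. It was lowest for Ctla2a (1.23) and Tinagl1 (0.97) without HS mouse 1 and for Gda (0.91) without control mouse 2. Over the 4 mice, T and NK markers summed to 2.51 and 4.11 CPM in controls and 7.31 and 3.85 CPM after HS, mast cell markers to 5.33 and 5.34, then 7.70 and 8.66 CPM, and endothelial markers to 829 and 958, then 1003 and 872 CPM. Macrophage markers summed to 32.96 and 37.95, then 41.43 and 46.13 CPM, and those of smooth muscle and pericytes to 428.2 and 561.6, then 455.9 and 477.3 CPM. Adipocyte markers summed to 241.1 and 176.4, then 129.4 and 234.8 CPM, and fibre markers to 198900 and 189200, then 206500 and 192900 CPM. None of these markers was called, and their part in the levels of the 3 genes was not tested.

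The chaperone genes showed no such difference in the Hsf1-/- mice. Hspa1a had 3.34 and 2.13 CPM in the controls and 3.00 and 1.91 CPM after HS (log2 -0.17, interval -1.49 to 1.15, adjusted p = 0.98). Hspa1b had a log2 fold change of -0.21 (interval -1.68 to 1.26, adjusted p = 0.97). For Hsp90aa1 it was 0.10 (interval -0.43 to 0.63, adjusted p = 0.96), an interval that lies below those of Ctla2a, Tinagl1 and Gda, whereas the wide intervals of Hspa1a and Hspa1b overlap them. The gap between genes was not tested.

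Between genotypes the HS responses of the 3 genes differed most for Ctla2a. Its log2 fold change was 1.68 lower in Hsf1-/- than in WT mice as a description, and most of that lay in the controls, where Hsf1-/- mice were higher by 1.32 on the log2 scale. After HS the groups overlapped, with a mean of 10.9 CPM in Hsf1-/- and 14.0 in WT mice. For Tinagl1 the Hsf1-/- minus WT difference was -0.57 and for Gda 0.16. None of these differences was tested, because the WT values had been used to choose the genes. Beside these differences, the Hsf1-/- and WT mice of the HS experiment also differed in age and in Y-linked counts, whose part was not tested.

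**Figure D2:**
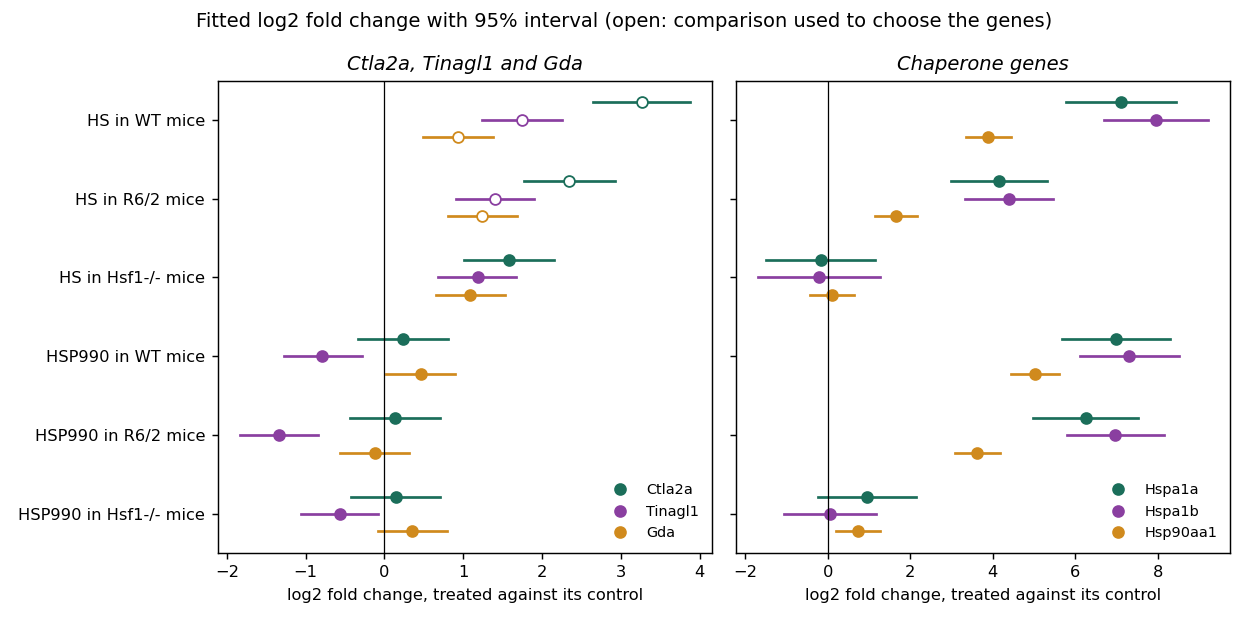
Fitted log2 fold change (x axis) of each treatment against its control with its 95% interval (bars) in 3 genotypes (y axis), for Ctla2a, Tinagl1 and Gda (left) and 3 chaperone genes (right, a wider axis). Open points mark the comparisons that chose the genes, for which the intervals are no test. In heat-shocked Hsf1-/- mice the left-hand genes sit at 1.09 to 1.58 and the chaperone genes at -0.21 to 0.10, and after HSP990 Tinagl1 lies at -1.34 to -0.57.

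None of the 3 genes was called higher after HSP990, with 1.45% of all genes called higher in WT, 0.473% in R6/2 and 0.167% in Hsf1-/- mice. Tinagl1 was lower in HSP990 than in vehicle mice in all 3 genotypes and passed the test in R6/2 mice. There it fell from 48.0 and 73.5 CPM to 27.3 and 20.7 CPM, 2.53-fold (log2 fold change -1.34, SE 0.234, interval -1.83 to -0.84, adjusted p = 0.0067 in edgeR). In this comparison 1.43% of tested genes were called, and 0.96% were called lower. The call was absent without mouse 2 of the R6/2 vehicle group (log2 -1.0, adjusted p = 0.14), without mouse 2 of the R6/2 HSP990 group (-1.15, adjusted p = 0.11) and in a fit of only the 4 libraries compared (adjusted p = 0.16).

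In WT mice Tinagl1 had 37.5 and 52.2 CPM with vehicle and 22.8 and 29.2 CPM with HSP990 (log2 -0.79, SE 0.234, interval -1.28 to -0.29, adjusted p = 0.11), and DESeq2 called it (adjusted p = 0.029). Of all genes, edgeR called 1.85% in WT mice (255 genes) and 0.407% lower (56), while DESeq2 called 542 genes, 143 of them lower. In Hsf1-/- mice it had 45.5 and 56.3 CPM with vehicle and 37.9 and 30.7 CPM with HSP990 (log2 -0.57, interval -1.06 to -0.08, adjusted p = 0.44), where 0.218% of genes were called. HSP990 and vehicle mice did not overlap in any genotype, but the share of all genes without overlap was not counted. The R6/2 minus WT difference of these responses was -0.55 (interval -1.25 to 0.14, adjusted p = 0.77), the Hsf1-/- minus WT difference 0.22 (interval -0.48 to 0.91, adjusted p = 0.95) and the Hsf1-/- minus R6/2 difference 0.77 (interval 0.08 to 1.46, adjusted p = 0.61). No difference between genotypes was thus shown for Tinagl1.

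Ctla2a passed no test of HSP990. It had 4.14 and 3.14 CPM with vehicle and 4.64 and 3.91 CPM with HSP990 in WT mice (log2 0.23, interval -0.34 to 0.80, adjusted p = 0.77). In R6/2 mice it had 1.71 and 1.85 CPM, then 2.07 and 1.84 CPM (log2 0.13, interval -0.44 to 0.71, adjusted p = 0.96). In Hsf1-/- mice it had 3.34 and 3.28 CPM, then 4.45 and 2.76 CPM (log2 0.14, interval -0.43 to 0.71, adjusted p = 0.92). The groups overlapped in each genotype.

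Gda passed no test of HSP990 either. Its levels in WT mice were 28.8 and 28.7 CPM with vehicle and 40.7 and 38.5 CPM with HSP990 (log2 0.46, SE 0.207, interval 0.02 to 0.90, unadjusted p = 0.041, adjusted p = 0.35 in edgeR). R6/2 mice had 18.3 and 23.0 CPM with vehicle and 20.4 and 17.5 CPM with HSP990 (log2 -0.12, interval -0.56 to 0.31, adjusted p = 0.95), and Hsf1-/- mice 36.9 and 22.4 CPM, then 41.7 and 33.9 CPM (log2 0.35, interval -0.08 to 0.79, adjusted p = 0.64). The R6/2 minus WT difference of the responses was -0.58 (interval -1.20 to 0.03, adjusted p = 0.72). That test called 0 genes in edgeR (0%), 981 genes had an unadjusted p under 0.05, and DESeq2 called 49, none of them one of the 3.

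The chaperone genes, by contrast, rose with HSP990 in WT and R6/2 mice. Hspa1a rose 128-fold in WT and 76.4-fold in R6/2 mice (adjusted p = 2.8e-06 and 2.2e-05), and Hsp90aa1 rose 32.5-fold and 12.3-fold (adjusted p = 9.8e-09 and 1.3e-06). Their responses differed between Hsf1-/- and WT mice, with a log2 difference of -6.04 for Hspa1a (adjusted p = 0.00051) and -4.28 for Hsp90aa1 (adjusted p = 4.5e-06). In that test 0.422% of genes were called, 0.0945% with a higher and 0.327% with a lower response in Hsf1-/- mice. The same difference was -0.09 for Ctla2a (interval -0.90 to 0.71, adjusted p = 0.99) and -0.11 for Gda (interval -0.72 to 0.51, adjusted p = 0.98).

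In Hsf1-/- mice the HS and HSP990 responses could be compared in groups that the choice of genes had not compared. The HS minus HSP990 difference of log2 fold changes was 1.75 for Tinagl1 (SE 0.329, interval 1.05 to 2.44, adjusted p = 0.048), in a comparison with 0.145% of genes called and 0.0945% called higher. It was 1.44 for Ctla2a (interval 0.64 to 2.24, adjusted p = 0.15) and 0.73 for Gda (interval 0.12 to 1.35, adjusted p = 0.37). The Tinagl1 call was at the edge: it was lost without each of the 8 mice in turn, with adjusted p from 0.058 to 0.25, although the difference stayed between 1.54 and 1.93. The HS mice were 10 weeks old and the HSP990 mice 8 weeks old, so that treatment and age cannot be told apart here.

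Untreated levels also differed between groups. In vehicle mice, which the choice did not compare, Ctla2a was lower in R6/2 (1.71 and 1.85 CPM) than in WT mice (4.14 and 3.14 CPM), 2.04-fold (log2 -1.03, SE 0.273, interval -1.61 to -0.45, adjusted p = 0.014). This comparison called 19.2% of all genes, 8.72% higher and 10.5% lower, so that a call in it is common. The call was lost without WT vehicle mouse 1 (log2 -0.82, adjusted p = 0.13) and without either R6/2 vehicle mouse (-1.08 and -0.98, adjusted p = 0.055 and 0.087). Scaling by library size alone gave -0.36 (adjusted p = 0.28), while the median of all genes moved from 0.07 to 0.74, so that Ctla2a still lay below the median by a similar amount.

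The R6/2 controls of the HS experiment did not share this difference. There Ctla2a was 0.49 higher on the log2 scale in R6/2 than in WT mice as a description, since WT controls had 1.27 to 1.66 CPM and WT vehicle mice 3.14 to 4.14 CPM. The R6/2 groups were alike, with 1.74 to 2.38 CPM in controls and 1.71 to 1.85 CPM with vehicle. Y-linked counts were 0 in both WT controls and 4612 and 4870 in WT vehicle mice, and they were 4 and 0 in R6/2 controls and 9392 and 7564 in R6/2 vehicle mice, where Ctla2a was alike. Their part was not tested. T and NK markers, of which 1 of 8 reached a mean of 1 CPM, summed to 4.18 and 5.15 CPM in WT controls and 3.02 and 2.21 CPM in WT vehicle mice, and their part was not tested either.

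Tinagl1 and Gda passed no test between vehicle groups. Tinagl1 was 0.44 higher on the log2 scale in R6/2 than in WT vehicle mice (interval -0.05 to 0.92, adjusted p = 0.21), and library size scaling made this 1.10 (adjusted p = 0.00086). Gda was 0.48 lower, a log2 value of -0.48 (interval -0.92 to -0.04, adjusted p = 0.12), which library size scaling turned to 0.19 (adjusted p = 0.43). As a description, Gda was also lower in R6/2 than in WT controls (log2 -0.77). Muscle fibre markers were lower in the same R6/2 vehicle mice, all 6 of them called, where 19.2% of all genes were called and 10.5% called lower. They summed to 34320 and 40850 CPM against 202700 and 196800 CPM in WT mice, and their part in these levels was not tested. Between Hsf1-/- and WT vehicle mice the log2 differences were -0.14 for Ctla2a, 0.18 for Tinagl1 and 0.04 for Gda (adjusted p = 0.93, 0.87 and 0.98), with 0.0872% of genes called.

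Ordered from the lowest to the highest mean, the 3 HS groups held the top 3 places for Ctla2a and Tinagl1, but not for Gda. For Ctla2a the HS groups did not overlap with the other 9, and among themselves R6/2 (10.5 CPM), Hsf1-/- (10.9) and WT (14.0) were not separated between neighbours in that order. For Tinagl1 the order at the top was Hsf1-/- (95.3 CPM), WT (117) and R6/2 (124), of which the last 2 overlapped, and at the bottom stood the HSP990 mice of R6/2 (24.0) and WT (26.0), which overlapped too. Gda was highest in Hsf1-/- HS (58.5 CPM) and WT HS mice (43.6), which did not overlap, whereas R6/2 HS mice (31.8) overlapped with Hsf1-/- vehicle mice (29.6) and ranked below WT (39.6) and Hsf1-/- (37.8) HSP990 mice. The groups at the low end of Gda were all R6/2 (13.4 CPM in controls, 18.96 with HSP990 and 20.7 with vehicle). With library size alone the ranks of R6/2 groups changed: Ctla2a was then highest in R6/2 HS mice (12.8 CPM, against 11.6 in WT), and Gda with vehicle was higher in R6/2 (28.3) than in WT mice (24.8).

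The genes that work with these 3 were followed in 3 lists, chosen with earlier results of these data known. The list around Ctla2a and Tinagl1 held 17 other genes, cysteine cathepsins, their cystatin inhibitors and the TINAG family, of which 15 were tested. After HS in Hsf1-/- mice, 9 of the 15 were higher, 0 were called (0.00727% of all genes were called), and their median log2 fold change was 0.06 against 0.00 for all genes. After HSP990 none was called in any genotype, with medians of 0.13 in WT, -0.09 in R6/2 and -0.04 in Hsf1-/- mice, where 1.85%, 1.43% and 0.218% of all genes were called. In R6/2 against WT vehicle mice 4 were called, a share to be read against 19.2% of all genes. Ctsl, a lysosomal cathepsin, was 2.19-fold higher (adjusted p = 0.00015) and Lgmn, the lysosomal protease legumain, 2.37-fold higher (adjusted p = 0.00038). Cst6, a cystatin named after its value was seen, was 2.13-fold lower (adjusted p = 0.017), and Tinag, the relative of Tinagl1, was at a mean of 0.406 CPM in WT and at 0 in R6/2 mice.

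The list of basement membrane proteins and receptors linked to Tinagl1 had 20 other genes, 19 of them tested. In WT mice given HSP990, 18 of the 19 had a log2 fold change above 0, and the median was 0.54 against -0.00 for all genes, while Tinagl1 in the same mice had -0.79. Of these, 2 were called, where 1.85% of all genes were called and 1.45% called higher: Nid2, a nidogen that links laminin to collagen IV (2.24-fold, adjusted p = 0.039), and Lamc1, a laminin chain (1.59-fold, adjusted p = 0.04). In the same WT mice endothelial markers summed to 801 and 734 CPM with vehicle and 887 and 1024 CPM with HSP990 (median log2 fold change 0.38), those of smooth muscle and pericytes to 377 and 384, then 492 and 454 CPM (0.26), and those of macrophages to 23.5 and 24.1, then 34.4 and 54.7 CPM (0.77). The part of these cells in the list's values was not tested. In R6/2 mice 7 of the 19 were higher and 0 called, with a median of -0.14, where 1.43% of all genes were called. After HS in Hsf1-/- mice 15 of the 19 were higher with a median of 0.28, and 0 were called, against 0.00727% of all genes. In vehicle mice, with 19.2% of all genes called, Itga1, an integrin chain that binds collagen, was 2.93-fold lower in R6/2 than in WT mice (adjusted p = 0.0024), and Lamb2, a laminin chain, 1.68-fold higher (adjusted p = 0.012).

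The list of purine salvage and degradation around Gda had 31 other genes, 27 of them tested. After HS in Hsf1-/- mice 14 of 27 were higher (median 0.02) and 0 called, and since 0.00727% of all genes were called, nothing is read from that 0. HSP990 lowered Xdh, the xanthine oxidoreductase that acts on the xanthine made by GDA, in WT (2.55-fold, adjusted p = 0.002) and in R6/2 mice (2.61-fold, adjusted p = 0.0023), where 1.85% and 1.43% of all genes were called. In Hsf1-/- mice Xdh had means of 85.86 CPM with vehicle and 47.39 CPM with HSP990 and was not called, where 0.218% of all genes were called. In R6/2 mice HSP990 also lowered Ampd3, an AMP deaminase (2.42-fold, adjusted p = 0.018), and Nt5c2, a purine nucleotidase (2.02-fold, adjusted p = 0.024). Those were genes that stood higher in R6/2 than in WT vehicle mice, Ampd3 5.53-fold (adjusted p = 2.4e-05) and Nt5c2 2.84-fold (adjusted p = 0.00023), whereas Ampd1, the muscle AMP deaminase, was 3.65-fold lower there (adjusted p = 0.001). Of the 27, 3 were called higher and 8 lower in R6/2 vehicle mice, against 8.72% and 10.5% of all genes, so that the count called higher is near the background. Of the 8, 4 (Adss, Aprt, Gmpr and Paics, named after their values were seen) had log2 changes of only -0.65 to -0.43, less than library size scaling moves the median of all genes.

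**Figure D3:**
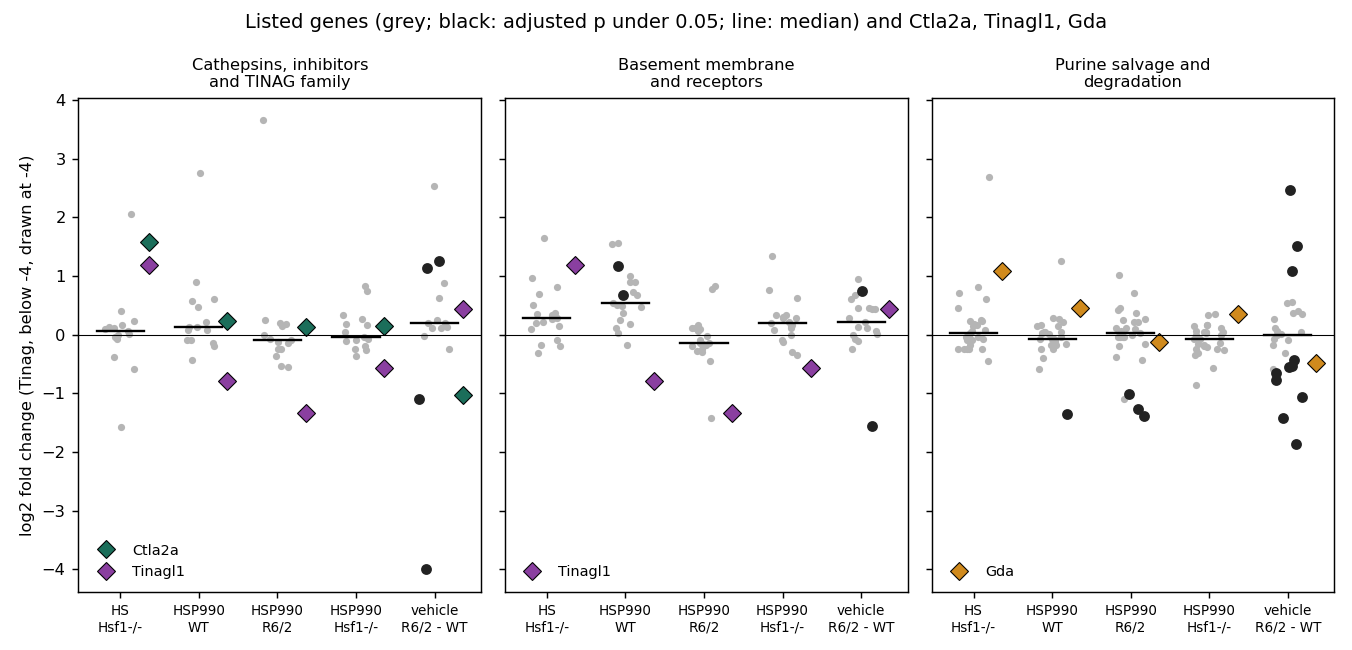
Log2 fold change (y axis) of the tested genes of 3 lists (grey; black where the adjusted p was under 0.05; line, their median) and of Ctla2a, Tinagl1 and Gda (diamonds) in 5 comparisons (x axis). The diamonds lie above the list medians after HS in Hsf1-/- mice, and Tinagl1 lies below them after HSP990 in each genotype, against medians of 0.54, -0.14 and 0.19 for the basement membrane list.

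Other genes followed these 3 over the libraries. Likeness was measured as Pearson's r of log2(CPM + 0.5) over 24 libraries with each of 11118 genes of at least 1 CPM on average, and given without a test because treatment groups and scaling are shared by all points. Those most like Tinagl1 were Usp54 (0.952), Sema7a (0.951), Wbp1l (0.940), Map3k6 (0.940) and Mt2 (0.934). In the 12 libraries of the HSP990 experiment alone, which are part of the 24, their r with Tinagl1 was 0.818 to 0.953.

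The genes most like Tinagl1 also shared its pattern of opposite signs. Mt2, a metallothionein that binds zinc, had log2 fold changes of 4.93 after HS in WT, 3.45 in R6/2 and 3.36 in Hsf1-/- mice, and of -2.62, -6.03 and -1.55 after HSP990. Map3k6, a kinase of the stress-activated MAPK pathways, had 3.33, 1.87 and 2.01 after HS and -3.16, -4.41 and -2.11 after HSP990. For Mt2 only HS in WT and HSP990 in R6/2 mice passed in edgeR (adjusted p = 0.014 and 0.0096). For Map3k6 HS in WT mice and HSP990 in WT and R6/2 mice did (adjusted p = 0.018, 0.037 and 0.0048). All these fold changes are part of the likeness itself and are no separate support.

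Ctla2a was most like Prkch (r = 0.859), Irf8 (0.850), E2f7 (0.846), Nod2 (0.825) and Lnx1 (0.818), but over the 12 HSP990 libraries these values were only 0.339 to 0.618, so the likeness rested mainly on the HS experiment. Irf8, a transcription factor of the immune system, had log2 fold changes of 1.48, 1.33 and 0.81 after HS in WT, R6/2 and Hsf1-/- mice and of 0.21, -0.10 and -0.33 after HSP990. Gda was most like Nr4a1 (0.857), Pde4d (0.849), Col4a1 (0.846), Slc25a25 (0.843) and E2f7 (0.833), with 0.661 to 0.884 over the 12 HSP990 libraries. Nr4a1, an orphan nuclear receptor of the early response, had 1.40, 1.18 and 1.10 after HS and 0.11, 0.30 and 0.58 after HSP990. None of these Nr4a1 values passed in edgeR, and of those of Irf8 only HS in WT mice did (adjusted p = 0.0029).

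Among themselves the 3 genes were less alike. Over 24 libraries r was 0.740 between Ctla2a and Tinagl1, 0.749 between Ctla2a and Gda and 0.399 between Tinagl1 and Gda. Over the 12 HSP990 libraries Ctla2a and Gda kept an r of 0.856, while Tinagl1 had -0.165 with Ctla2a and -0.142 with Gda.

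**Figure D4:**
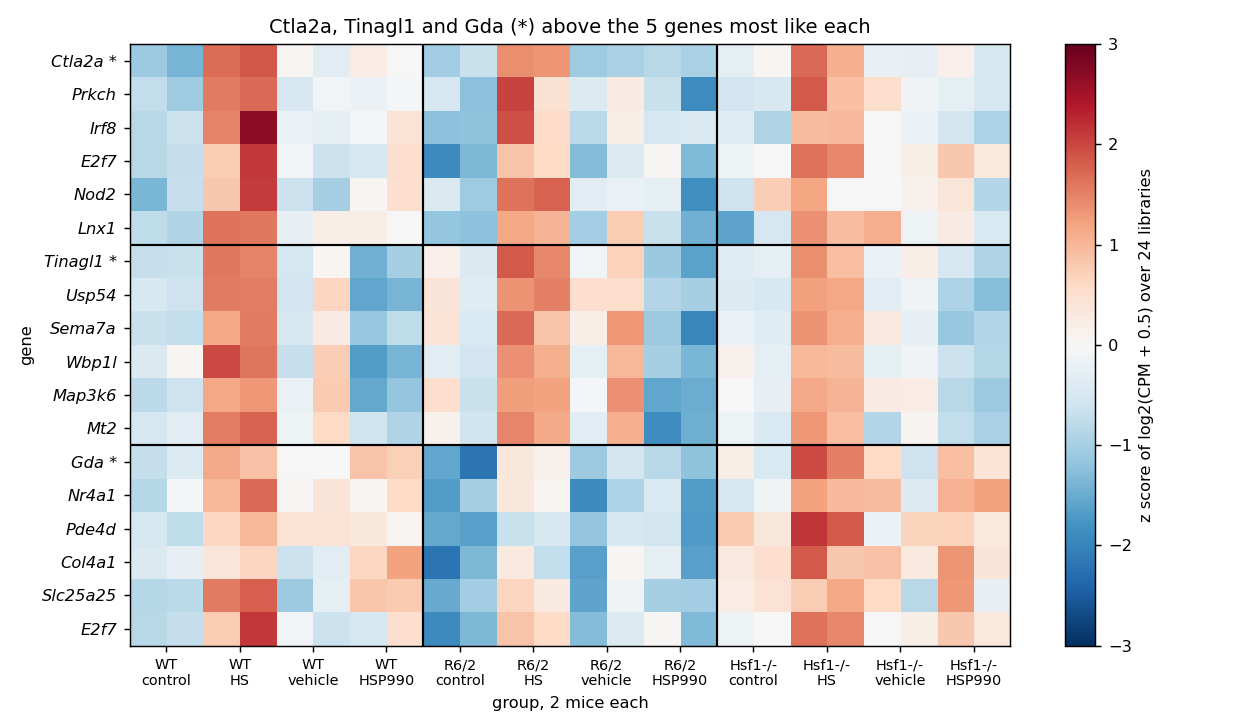
Z score of log2(CPM + 0.5) over 24 libraries (colour, red above the mean) for Ctla2a, Tinagl1 and Gda (starred) and the 5 genes most like each (y axis), by group with 2 mice each (x axis). HS columns are red for most genes, and HSP990 columns are blue in the Tinagl1 block in each genotype, where r in the HSP990 experiment alone was 0.818 to 0.953.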

How the data were processed

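The deposited file holds raw gene counts, which the authors made from strand-specific poly(A) libraries with paired reads mapped to mm9 with Bowtie, without normalization. Per the labels, 1 column is 1 mouse, and all 24 columns were used. The counting program and its gene annotation are not given in the sources used here. Of 18669 gene numbers, 18594 matched a symbol, and positions were taken from GENCODE on mm9.

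A gene was tested where 10 or more libraries held 2 or more counts (13754 genes, the 3 genes among them with at least 2 counts in all 24) were scaled with TMM and fitted as 12 groups by the quasi-likelihood method of edgeR 4.0.16 (R 4.3.3, limma 3.58.1), with 12 residual degrees of freedom. P-values were adjusted by Benjamini-Hochberg over all genes within a comparison, at a threshold of 0.05. An exact permutation test of 2 mice against 2 cannot go below 0.333. Counts of the mice of a group differed by more than counting error (chi-square divided by its degrees of freedom, 20.25 to 115.6). The genes and lists were chosen with earlier results of these data known. Named besides the 3 genes were Hspa1a, Hspa1b, Hsp90aa1, Hsf1, up to 3 called genes per list and tested comparison with the largest change, and the 5 genes most like each. The alternatives were no filter, filterByExpr, scaling by RLE or by library size alone, only the groups compared, the replicate number as a block, DESeq2 1.42.0 and leaving out each mouse. The procedure was tested on simulated data.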

Additional observations from a re-analysis of the deposited data

How the results depend on the processing

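When the 30 tested values of Ctla2a, Tinagl1 and Gda were recomputed under the alternatives, 326 repeats kept their direction and their side of the threshold, 21 turned direction, all in values that had not passed the test, 15 passed it newly and 19 no longer passed. After HS in Hsf1-/- mice, Ctla2a passed with RLE size factors (1.57), no filter (1.58), the replicate block (1.56) and DESeq2 (1.58), Tinagl1 with no filter (1.18), only the groups compared (1.18) and DESeq2 (1.17), and Gda with no filter, the block and only the groups compared (1.09 in each) and DESeq2 (1.08). Of all genes, RLE called 6 there, no filter 28, the block 9, only the groups compared 98 and DESeq2 161, against 1 in the main fit. DESeq2 also called Tinagl1 after HSP990 in WT mice (-0.79, among 542 genes called) and Ctla2a for the HS minus HSP990 difference in Hsf1-/- mice (1.43, among 179). The fit of only the groups compared lost Tinagl1 after HSP990 in R6/2 mice (-1.34) and Ctla2a between vehicle groups of R6/2 and WT mice (-1.05). Library size alone, which moves the median of all genes there from 0.07 to 0.74, gave -0.36 for Ctla2a, 1.10 for Tinagl1 and 0.19 for Gda in that comparison. The HS minus HSP990 difference of Tinagl1 in Hsf1-/- mice was lost with library size only (1.55), the block (1.75) and only the groups compared (1.74). For the HSP990 response of Ctla2a, the Hsf1-/- minus WT value was 0.01 with library size only, and the Hsf1-/- minus R6/2 value -0.01 with the block and -0.00 with only the groups compared. The cause of these shifts was not tested.

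Without single mice, Ctla2a ranged from 1.23 to 1.86 after HS and from -0.25 to 0.43 after HSP990 in Hsf1-/- mice, from -1.22 to -0.82 between R6/2 and WT vehicle mice and from -0.32 to 0.08 between Hsf1-/- and WT vehicle mice. Its HSP990 response differed by -0.31 to 0.09 (R6/2 minus WT), -0.48 to 0.20 (Hsf1-/- minus WT) and -0.39 to 0.30 (Hsf1-/- minus R6/2). Tinagl1 ranged from -1.61 to -1.0 after HSP990 in R6/2 mice, -0.04 to 0.44 for Hsf1-/- minus WT, both in the HSP990 response and with vehicle, and 1.54 to 1.93 for HS minus HSP990. Gda ranged from -0.28 to 0.05 after HSP990 in R6/2 mice, -0.42 to 0.30 for Hsf1-/- minus WT in the HSP990 response and -0.36 to 0.36 with vehicle. A lone mouse was taken to vary like the other groups.

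Genes called after HS in Hsf1-/- mice numbered 1, with 1 to 161 under other settings, after HSP990 255 (158 to 542) in WT, 197 (8 to 376) in R6/2 and 30 (0 to 142) in Hsf1-/- mice, 2638 (1968 to 7652) between R6/2 and WT vehicle mice and 20 (11 to 179) for HS minus HSP990 in Hsf1-/- mice. Library size scaling called 7363 higher and 289 lower between R6/2 and WT vehicle mice, against 1200 and 1438. Deviations of same-numbered mice had no common sign over pairs of groups (r from -0.333 to 0.346, and 0.239 for HS in Hsf1-/- mice). The samples were treated as unpaired, although this check cannot settle whether the numbers pair them. The block, apart from the values above, turned no other call of the 3 genes, and gave 9 genes after HS in Hsf1-/- mice. Crossed numbers, tried after the data were seen for HSP990 in Hsf1-/- mice, gave 25 genes against 24 with the block. With 2 mice per group and 34 counts at the lowest, small changes of Ctla2a are beyond this depth.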

Other observations

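Over the 12 libraries of the HSP990 experiment alone, the gene most like Ctla2a was Kpna1 (r = 0.969), that most like Tinagl1 was Fgfr3 (0.957) and that most like Gda was Kcp (0.967), all 3 named after their values were seen. None of them is among the 5 most like genes over 24 libraries.

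Kit, the stem cell factor receptor, rose 4.07-fold with HSP990 in WT mice (adjusted p = 0.037 in edgeR). It made up most of the change in the sum of 4 mast cell markers, from 4.93 and 5.82 CPM with vehicle to 14.5 and 13.6 CPM with HSP990, and of the 3 markers tested 2 were higher and 1 was called. Of 5 macrophage markers, Mrc1, a mannose receptor, rose 2.37-fold (adjusted p = 0.039) and was the 1 called. Both calls are to be read against 1.85% of all genes called and 1.45% called higher in this comparison. Ctla2a, known from mast cells among others, had 4.14 and 3.14 CPM in the same vehicle mice and 4.64 and 3.91 CPM with HSP990.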
